A study of Mus musculus with 6 samples.

Results

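The genes described here are 35 markers of Kupffer cells, other macrophages and monocytes, listed by name and read in whole liver of mice with and without the receptor ErbB4. All 35 were found among the 22180 genes of the arrays, each through 1 probe set that carries a single gene symbol. They were placed in 3 classes by what the genes are known for. The resident Kupffer class holds 12 genes, the general macrophage class 14, and the class of monocyte and pan-leukocyte genes 9.

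Kupffer cells are the macrophages that live in the liver sinusoids, where they take up bacteria, old red cells and dying cells from the blood. They depend on signals through the receptor CSF1R and on the transcription factor PU.1, and they carry scavenger and complement receptors that freshly arrived monocytes lack. Monocytes enter the liver from blood during injury, carry more Ly6C and the integrin CD11b, and can take on Kupffer cell genes once they settle. A drop of both kinds of gene in whole tissue may come from fewer cells or from less RNA per cell, which cannot be told apart in bulk tissue.

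Liver was taken from 3 wild-type C57BL/6J mice, the controls, and from 3 ErbB4-/- mice, with 1 array per mouse. The ErbB4-/- animals are full mutants kept alive by a transgene that supplies ErbB4 in the heart (ErbB4-/-HER4heart), on a C57BL/6J background after backcrossing, so every cell outside the heart lacks the receptor and no effect can be assigned to macrophages alone. All 6 mice, controls included, had received 1 injection of DEN, a liver carcinogen, on postnatal day 14. Dissection followed 32 weeks later in the treatment protocol, but the labels of the single mice state 32, 33 and 34 weeks in the control group and 35, 36 and 37 weeks in the mutants. Array values are listed throughout in the order of the replicate numbers 1 to 3, which is also that of these weeks.

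Array medians lay between 4.83 and 4.86 on the log2 scale. Erbb4 itself measured 5.42, 5.73 and 5.42 in control and 4.75, 5.36 and 5.61 in ErbB4-/- liver, and since the part of the gene its probe set reads is not known here, it does not check the labels. Hepatocyte markers were high on all 6 arrays, with a list mean between 12.32 and 12.46. ErbB4-/- replicate 3 stood apart with low immediate early genes, at a list mean of 6.69 against 8.76 to 10.23 elsewhere. Control replicate 1 stood apart in Hsd3b5, a male-biased steroid enzyme of liver, at 2.52 against 8.70 to 9.88. Counts are therefore also given without these 2 arrays.

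Promoters of 26 members were found in the RefSeq table of GRCm38.p6, which covers 250 bases before and 50 after a gene's start. They were searched on both strands for GAGGAAGT, a purine-rich box of the kind PU.1 binds, which reads ACTTCCTC on the other strand. It was found for 3 of the 26 genes, 11.5%, and for 3.69% of the 27025 genes with a promoter in the table. Each class holds 1 of these genes. Their windows are shown with the box in capitals, read 5′ to 3′ along the gene.

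C1qc, chr4:136893062-136893149, minus strand: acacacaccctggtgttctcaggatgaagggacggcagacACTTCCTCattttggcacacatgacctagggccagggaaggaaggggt

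Ctss, chr3:95526744-95526791, plus strand: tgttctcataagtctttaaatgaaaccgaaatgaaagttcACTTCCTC

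Ly6c2, chr15:75111938-75112119, minus strand: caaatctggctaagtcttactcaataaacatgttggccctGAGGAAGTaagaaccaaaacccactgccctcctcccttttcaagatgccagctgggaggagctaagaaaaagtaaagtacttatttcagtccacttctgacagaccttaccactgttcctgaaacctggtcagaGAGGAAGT

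Relative to the annotated start, the box begins at base -2 in Ctss, at -195 in C1qc, and at -108 and 26 in Ly6c2, counted from its first listed start. On either strand, TGAGTCA, the letters AP-1 binds, were found for Folr2, Cd68 and Itgax, 11.5% of the 26 against 5.95% of all genes. TGCTGAC, letters of MAF sites, were found on either strand for Timd4 alone, 3.85% against 5.28%. None of the 3 motifs contains another, and a match describes the letters in this window only.

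Nearly every member had a lower mean in ErbB4-/- than in control liver. Of the 35 genes 34 were lower, against 45.3% of all genes, and the median log2 difference of the members was -0.69, against 0.015 over all genes. The 3 control arrays lay wholly above the 3 ErbB4-/- arrays for 25 members, a pattern seen downward in 3.81% of all genes. The opposite pattern was seen in 0 members and 4.52% of all genes. Differences of at least 1.5-fold downward were measured for 24 members (1.53% of all genes) and of at least 2-fold for 8 (0.514%). Averaged over the 35 genes, the log2 level was 8.0, 7.86 and 8.11 on the control arrays and 7.52, 7.30 and 6.95 on the ErbB4-/- arrays.

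None of the 35 passed the test across all genes (limma, Benjamini-Hochberg over 22180 genes), where 1 gene passed in all, 0.00451%. That gene, Clca3a1, is no member and is named after its values were seen. In each fit with 1 array left out no gene passed, with 900 to 1552 genes at an unadjusted p under 0.05 (limma). Adjusted p of the members ran from 0.664 for Ptprc to 0.978 for Itgax and was 0.760 for most. At an unadjusted p under 0.05 there were 27 members, all lower, against 2.94% of all genes that were lower with such a p. That count was 17 without control replicate 1, 15 without control replicate 3 and 16 without ErbB4-/- replicate 2, fits that also have fewer arrays. Without both control replicate 1 and ErbB4-/- replicate 3 it was 16, with 34 members still lower, a median of -0.55, and 31 without overlap against 12% of all genes in that smaller set. With the labelled week of each mouse as a covariate it was 2, with 27 members lower and a median of -0.39. In that fit 47% of all genes were lower, 407 of 22180 of them at an unadjusted p under 0.05 (limma). It assumes 1 slope for the week in both groups. The labelled weeks of the groups do not overlap, so week and genotype are hard to tell apart in it.

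**Figure D1:**
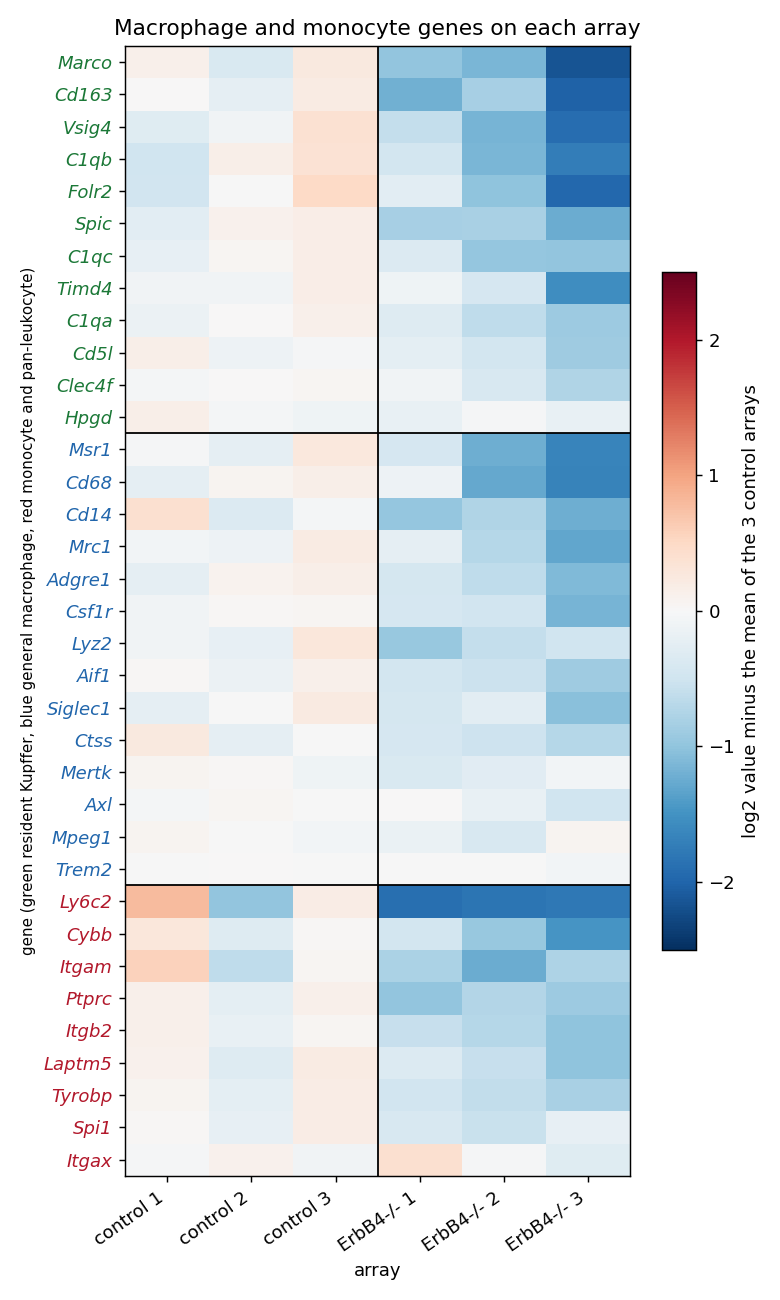
Log2 value of each of the 35 genes (rows, coloured by class and sorted by difference) on each of the 6 arrays (columns), minus the mean of the 3 control arrays. Blue is below that mean and red above it. The ErbB4-/- columns are mostly blue, and ErbB4-/- replicate 3 is the lowest array for 27 genes.

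The resident Kupffer class is described first. In 9 of the 12 genes the ErbB4-/- arrays lay wholly below the controls, against 3.81% of all genes. Among genes at or above the median level that share was 5.73%. All 12 genes had lower means in ErbB4-/- liver, against 45.3% of all genes, with a median log2 difference of -0.87. Without control replicate 2 this median was -0.83 and that of the monocyte and pan-leukocyte class -0.86, so the order of these 2 classes turned. The class mean was 8.50, 8.58 and 8.82 in control and 8.16, 7.88 and 7.27 in ErbB4-/- liver. The lowest control array was thus above the highest ErbB4-/- array, and ErbB4-/- replicate 3 lay furthest down. Within control the class mean was higher at a later labelled week (32, 33 and 34), within ErbB4-/- lower at a later one (35, 36 and 37). With 3 arrays a group this was not tested.

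Scavenger receptors for bacteria, haemoglobin and complement had the largest differences of the class. Marco, a receptor for bacteria and particles, measured 8.39, 7.88 and 8.50 in control and 7.27, 7.11 and 6.11 in ErbB4-/- liver, a difference of -1.43 on the log2 scale (standard error, SE, 0.35), or 2.69-fold. The lowest control value was 0.61 log2 units above the highest ErbB4-/- value. Cd163, the receptor for haptoglobin bound to haemoglobin, measured 7.70, 7.45 and 7.89 against 6.47, 6.85 and 5.66, a difference of -1.35 (SE 0.32). Vsig4, a receptor for complement C3 fragments, measured 9.40, 9.61 and 10.07 against 9.10, 8.54 and 7.80, a difference of -1.22 (SE 0.36). In Vsig4 ErbB4-/- replicate 1 lay 0.30 log2 units under control replicate 1, the lowest control, and the other ErbB4-/- arrays lay further down. Timd4, a phosphatidylserine receptor of long-lived Kupffer cells, measured 7.45, 7.43 and 7.70 against 7.42, 7.12 and 5.97, with the groups only 0.009 apart. Its difference of -0.69 carried a standard error of 0.38, and it was -0.26 without ErbB4-/- replicate 3.

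Apart from the C1q chains, differences of the other resident genes ran from -1.08 to -0.13. Clec4f, a C-type lectin that in mouse marks Kupffer cells, measured 9.48, 9.55 and 9.59 in control and 9.46, 9.14 and 8.78 in ErbB4-/- liver, a difference of -0.41 (SE 0.17) that was -0.24 without ErbB4-/- replicate 3. The controls lay within a narrow band and ErbB4-/- replicate 1 was only just below it. Cd5l, a secreted macrophage protein that binds lipids, measured 9.45, 9.18 and 9.27 against 9.07, 8.84 and 8.42, a difference of -0.53 (SE 0.18), or -0.35 without ErbB4-/- replicate 3. Spic, the PU.1-related factor of macrophages that recycle haem iron, measured 6.50, 6.87 and 6.92 against 5.93, 5.95 and 5.53. Its difference of -0.96 (SE 0.17) had the smallest unadjusted p of the class, 0.00157, with all ErbB4-/- arrays at least 0.54 below the controls. Folr2, a folate receptor of resident macrophages, measured 8.52, 8.98 and 9.49 against 8.72, 8.0 and 7.03, so the groups overlapped at a difference of -1.08 (SE 0.48), or -0.63 without ErbB4-/- replicate 3. Hpgd, which degrades prostaglandins, differed by -0.13 with a 95% interval from -0.35 to 0.08, its groups overlapped, and it was -0.06 without control replicate 1.

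The 3 chains of C1q, the first component of the classical complement pathway, are made in liver largely by macrophages. C1qa measured 8.16, 8.30 and 8.43 in control and 7.97, 7.66 and 7.38 in ErbB4-/- liver, a difference of -0.63 (SE 0.16). C1qb measured 9.17, 9.82 and 10.04 against 9.22, 8.53 and 7.95, a difference of -1.11 (SE 0.38). C1qc, whose promoter holds the PU.1 letters, measured 7.39, 7.63 and 7.76 against 7.24, 6.62 and 6.60, a difference of -0.77 (SE 0.20). All 3 chains shared 1 order of arrays, with control replicate 3 highest, control replicate 1 the lowest control and ErbB4-/- replicate 3 lowest of all. In C1qb the groups overlapped through control replicate 1 and ErbB4-/- replicate 1. Other complement genes, namely C1ra, C1s1, C2, C4b, Serping1, C5ar1 and C3ar1, had a median difference of -0.09, with 6 of 7 lower and 0 at an unadjusted p under 0.05 (limma). That median was between -0.14 and -0.01 when 1 array was left out.

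**Figure D2:**
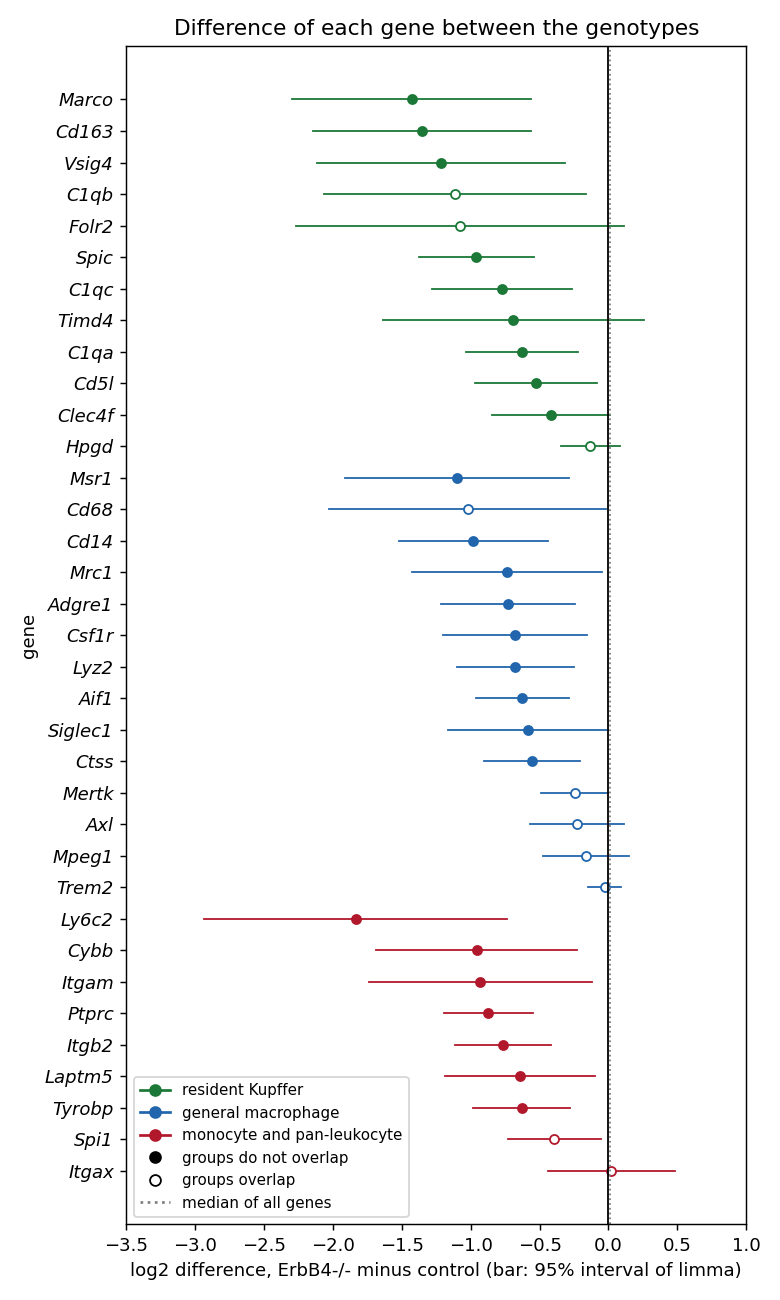
Log2 difference of each gene, ErbB4-/- minus control (points), with limma's 95% interval (bars), coloured by class. Filled points mark the 25 genes whose groups do not overlap, open points the 10 whose groups overlap, and the dotted line is the median of all genes at 0.015. The points lie left of 0 for all genes but Itgax.

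General macrophage genes are found in Kupffer cells and in macrophages of other origin. All 14 were lower in mean (45.3% of all genes), with a median difference of -0.65 and 9 without overlap (3.81% of all genes). Their class mean was 8.13, 8.07 and 8.23 in control and 7.76, 7.58 and 7.30 in ErbB4-/- liver. The controls were closely grouped and all above the ErbB4-/- arrays.

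In this class 2 genes exceeded 2-fold. Msr1, the class A scavenger receptor, measured 8.14, 7.94 and 8.43 in control and 7.75, 6.96 and 6.52 in ErbB4-/- liver, a difference of -1.10 (SE 0.33). Cd68, a lysosomal membrane protein of phagocytes, measured 8.31, 8.60 and 8.68 against 8.40, 7.25 and 6.86, a difference of -1.02 (SE 0.40). In Cd68 ErbB4-/- replicate 1 stood among the controls and the other ErbB4-/- arrays more than 1 log2 unit below them. The mannose receptor gene Mrc1, which sinusoidal endothelium also expresses, measured 9.16, 9.09 and 9.43 against 9.0, 8.52 and 7.94. Its groups did not overlap, with a difference of -0.74 (SE 0.28) that was -0.46 without ErbB4-/- replicate 3.

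Pan-macrophage surface genes differed by 1.5-fold to 1.66-fold. Csf1r, the receptor for the growth factors CSF1 and IL-34, measured 8.83, 8.94 and 8.96 in control and 8.50, 8.44 and 7.75 in ErbB4-/- liver, a difference of -0.68 (SE 0.21) or 1.60-fold. Adgre1, which encodes F4/80, measured 7.53, 7.85 and 7.90 against 7.31, 7.12 and 6.66, a difference of -0.73 (SE 0.19) or 1.66-fold. Siglec1, the sialic acid receptor CD169, measured 7.05, 7.27 and 7.50 against 6.84, 7.01 and 6.22, a difference of -0.58 (SE 0.23) or 1.5-fold. All ErbB4-/- arrays were below all controls in these 3 genes, and ErbB4-/- replicate 3 was lowest in each. Without it the difference was -0.44 for Csf1r and -0.35 for Siglec1.

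In 4 further general genes the groups did not overlap. Lyz2, lysozyme of macrophages and neutrophils, measured 9.88, 9.77 and 10.24 in control and 9.03, 9.38 and 9.46 in ErbB4-/- liver, a difference of -0.68 (SE 0.17). Here ErbB4-/- replicate 1 was the lowest array, unlike in most members. Ctss, the protease cathepsin S, another gene with those letters, measured 9.86, 9.40 and 9.61 against 9.20, 9.09 and 8.90, a difference of -0.55 (SE 0.14). Cd14, the co-receptor for lipopolysaccharide, measured 6.98, 6.24 and 6.53 against 5.61, 5.83 and 5.37, a difference of -0.98 (SE 0.22) or 1.97-fold. Aif1, the actin-bundling protein IBA1, measured 6.59, 6.42 and 6.69 against 6.11, 6.03 and 5.68, a difference of -0.62 (SE 0.14).

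The remaining general genes had smaller differences. Mpeg1, the pore-forming protein perforin-2, measured 9.85, 9.76 and 9.70 in control and 9.60, 9.38 and 9.84 in ErbB4-/- liver, so the groups overlapped at a difference of -0.16 (SE 0.12, 95% interval -0.48 to 0.15). It ran from -0.28 without ErbB4-/- replicate 3 to -0.05 without ErbB4-/- replicate 2. The TAM kinases that recognise dying cells differed by -0.25 for Mertk (SE 0.10) and -0.23 for Axl (SE 0.14), with overlapping groups in both. Axl was at -0.085 without ErbB4-/- replicate 3. Trem2, a lipid receptor of macrophages in injured tissue, had a difference of -0.03 with a 95% interval from -0.14 to 0.09. Its log2 level of 5.40 was near that of the median gene, 5.27, where a value can be background, and it was listed at 1 identical value on 4 arrays.

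The class of monocyte and pan-leukocyte genes had a median difference of -0.76. Of its 9 genes 8 were lower (45.3% of all genes), 7 of them without overlap (3.81%). Its mean was 7.12, 6.55 and 7.00 in control and 6.28, 6.09 and 5.97 in ErbB4-/- liver. Control replicate 2 was the lowest control in 8 of the 9 genes, while it was the lowest in 4 of 12 resident and 6 of 14 general genes. Over all genes it was the lowest control in 28.2%. These orders were noticed after the values were seen.

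Ly6c2, the antigen of classical monocytes and the third gene with the PU.1 letters, had the largest difference of all members. It measured 7.75, 5.98 and 7.15 in control and 5.07, 5.13 and 5.17 in ErbB4-/- liver, a difference of -1.84 (SE 0.44) or 3.57-fold. The controls spanned 1.77 log2 units. All 3 ErbB4-/- values lay below the level of the median gene, 5.27, where a value can be background, so their closeness to each other and the exact fold cannot be read as those of the transcript. Ly6c1, a close copy that endothelial cells express, was read near the lower end of the scale at 3.03 in control and 2.99 in ErbB4-/- liver. Probe sets of such copies can share signal. Itgam, the integrin chain CD11b of monocytes and neutrophils, measured 6.89, 5.68 and 6.37 against 5.52, 5.08 and 5.55, a difference of -0.93 (SE 0.33). Cybb, the catalytic subunit of the phagocyte oxidase, measured 8.87, 8.25 and 8.61 against 8.12, 7.64 and 7.10, a difference of -0.96 (SE 0.29).

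Genes shared by all leukocytes or all myeloid cells were lower by smaller but tighter amounts. Ptprc, the leukocyte antigen CD45, measured 7.82, 7.45 and 7.82 in control and 6.71, 6.97 and 6.80 in ErbB4-/- liver, a difference of -0.87 (SE 0.13) with the lowest p of the 35, 6.73e-04 unadjusted. Itgb2, the CD18 chain that pairs with CD11b and CD11c, measured 7.49, 7.18 and 7.42 against 6.78, 6.65 and 6.35, a difference of -0.76 (SE 0.14). Tyrobp, the adaptor DAP12, measured 7.47, 7.16 and 7.60 against 6.93, 6.80 and 6.61, a difference of -0.63 (SE 0.14). Laptm5, a lysosomal protein of blood cells, measured 6.11, 5.68 and 6.20 against 5.66, 5.43 and 4.99, a difference of -0.64 (SE 0.22). In all 4 the controls were above the ErbB4-/- arrays, in Laptm5 by only 0.023.

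In 2 of the 9 genes the values overlapped between the groups. Spi1, which encodes PU.1, measured 6.93, 6.69 and 7.07 in control and 6.49, 6.34 and 6.69 in ErbB4-/- liver, a difference of -0.39 (SE 0.13). Itgax, the CD11c chain of dendritic cells and some macrophages, was the only member with a higher mean, 4.81 ± 0.10 against 4.84 ± 0.36 (SD, n = 3 each), and turned to -0.02 without control replicate 3 and to -0.17 without ErbB4-/- replicate 1. It was also the only member below the level of the median gene. Dendritic cell genes had a median difference of -0.08, with 8 of 9 lower.

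**Figure D3:**
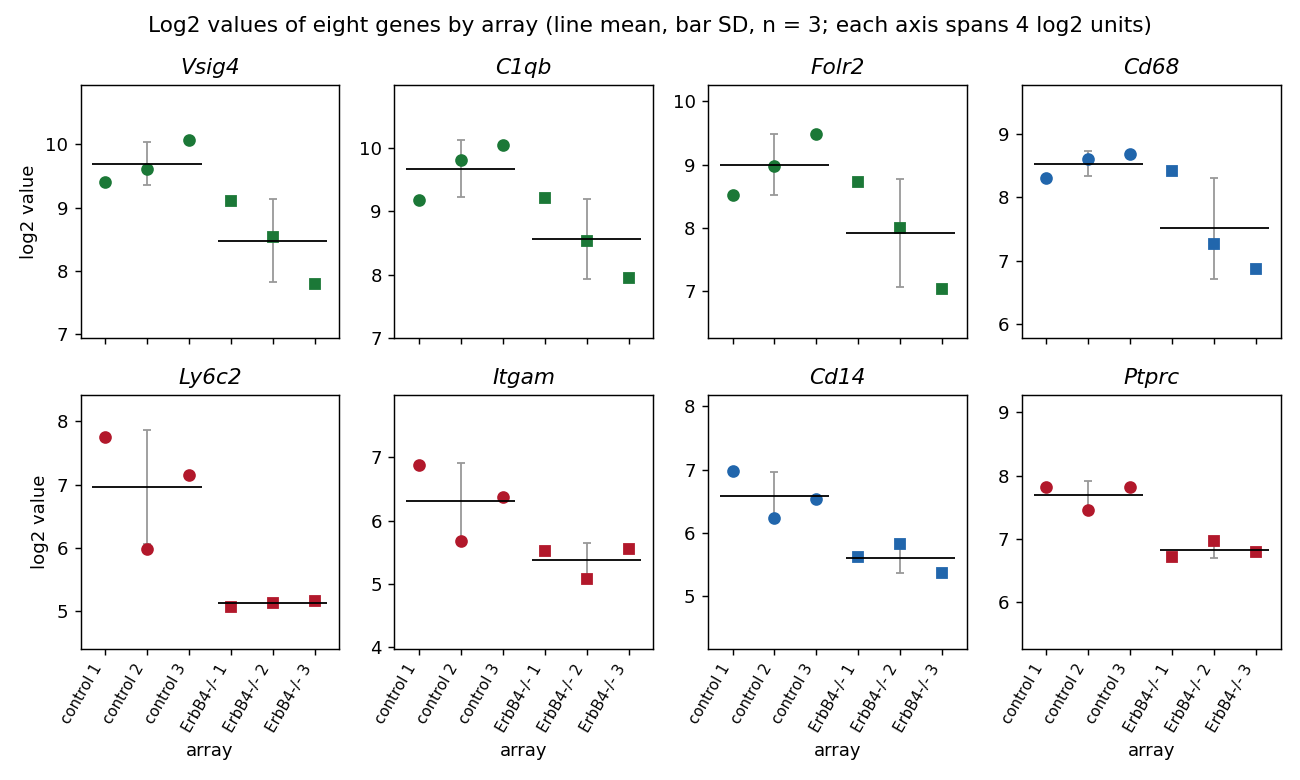
Log2 values of 8 genes on the 6 arrays, circles for control and squares for ErbB4-/- replicates 1 to 3, with the mean (line) and SD (bar) of each group of 3. Green marks resident, blue general and red monocyte or pan-leukocyte genes. In the upper row ErbB4-/- replicate 1 lies near the controls and replicate 3 lowest. In the lower row the ErbB4-/- arrays lie closer together and control replicate 2 is the lowest control. The 8 genes were picked by hand, and not all members of a class follow its row. ErbB4-/- replicate 3 was the lowest ErbB4-/- array in 5 of the 9 monocyte and pan-leukocyte genes, among them Cybb and Laptm5.

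Resident and general genes were compared by the distance between their class means on each array, whose size has no meaning of its own but whose change between arrays does. Resident minus general was 0.37, 0.50 and 0.59 in control and 0.40, 0.30 and -0.025 in ErbB4-/- liver. Averages came to 0.49 ± 0.11 and 0.22 ± 0.22 (SD, n = 3), a change of -0.26, and the groups overlapped through control replicate 1 and ErbB4-/- replicate 1. The change rests in part on ErbB4-/- replicate 3, the only array with a negative value. Without that array the median differences were -0.65 for resident and -0.47 for general genes. Resident minus monocyte and pan-leukocyte genes was 1.74 ± 0.33 in control and 1.66 ± 0.31 in ErbB4-/- liver, a change of -0.08, smaller than either spread. General minus monocyte and pan-leukocyte genes was 1.25 ± 0.26 and 1.43 ± 0.09, a change of 0.18 with overlapping groups. No p is given for these scores, because the members were chosen with results known.

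ErbB4-/- replicate 3 was the lowest of the ErbB4-/- arrays in 11 of 12 resident, 11 of 14 general and 5 of 9 monocyte and pan-leukocyte genes, against 31.7% of all genes. Control replicate 3 was the highest control in 10 of 12, 8 of 14 and 3 of 9, against 25.1% of all genes. Control replicate 1 was the highest control in 2 of 12, 4 of 14 and 5 of 9, against 30.4%. These orders are descriptions and were not tested.

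Markers of neutrophils and sinusoidal endothelium, cells that share some of these genes, were also lower in mean in ErbB4-/- liver. These lists differed from each other in the order of arrays. Neutrophils are also rich in CD11b, CD18 and lysozyme, and their markers had a list mean of 7.16, 5.32 and 6.81 in control and 4.71, 4.78 and 5.03 in ErbB4-/- liver. All 13 were lower with a median of -1.19 (-1.83 without control replicate 2), and control replicate 2 was the lowest control, as in Ly6c2 and Itgam. S100a9, a neutrophil and monocyte calgranulin, measured 8.95, 6.38 and 8.15 against 5.11, 5.09 and 5.82. The list of sinusoidal endothelium had means of 8.16, 8.51 and 8.68 against 8.22, 7.55 and 6.92, the order of Folr2 and C1qb. All 12 were lower with a median of -0.79 (-0.47 without ErbB4-/- replicate 3). Their part in the macrophage values was not tested.

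**Figure D4:**
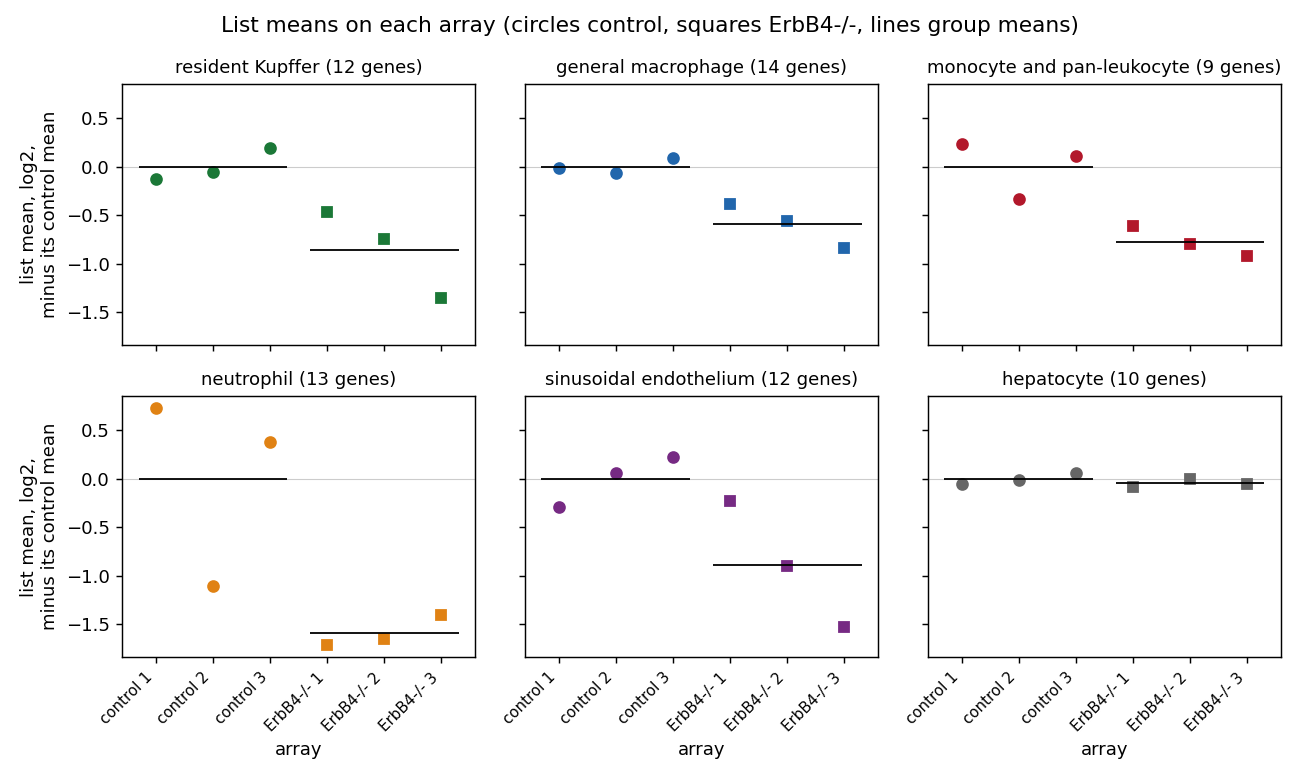
Mean log2 level of 6 gene lists on each array, minus the list's control mean, with circles for control, squares for ErbB4-/- and lines for group means. The 3 macrophage and monocyte classes, the neutrophil list and the endothelial list lie lower in ErbB4-/- liver, with 1 ErbB4-/- array inside the control range in the endothelial list. The hepatocyte list stays between 12.32 and 12.46 on all arrays.

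Genes around the members were read from other lists. Among other Kupffer genes and factors 13 of 14 measured were lower, with a median of -0.45 that was -0.20 without ErbB4-/- replicate 3. Hmox1, which breaks down haem, measured 7.77, 7.53 and 7.71 in control and 7.42, 6.82 and 6.69 in ErbB4-/- liver. The ficolin gene Fcna measured 8.38, 8.60 and 8.76 against 8.30, 7.85 and 7.24, and the platelet receptor CLEC-2 gene Clec1b 8.31, 8.28 and 8.74 against 8.03, 7.88 and 6.96. These 3 had no overlap, and ErbB4-/- replicate 3 was lowest in each.

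Classical monocyte genes were lower for 11 of 11, with a median of -0.33 that was -0.20 without control replicate 1. Chil3, a chitinase-like protein of monocytes and neutrophils, measured 7.50, 5.95 and 6.79 in control and 5.14, 4.42 and 5.51 in ErbB4-/- liver, with the controls in the order seen for Ly6c2. The chemokine receptor gene Ccr2 was low, at 4.89 ± 0.43 against 4.56 ± 0.06. Growth and recruitment signals, with 12 of 12 lower, had a median of -0.20. Csf1 itself measured 6.67 ± 0.14 and 6.47 ± 0.05, and Il34 5.63 ± 0.12 and 5.44 ± 0.15 (SD, n = 3 each).

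In the fit by genotype alone, 3 lists of partners of single members were mostly lower. The 4 measured partners of Cybb in the oxidase, Rac2, Cyba, Ncf1 and Ncf4, were all lower with a median of -0.61. Rac2, its GTPase, measured 8.0, 8.20 and 8.21 in control and 7.58, 7.17 and 7.55 in ErbB4-/- liver, a difference of -0.70. Signalling partners of Tyrobp were lower for 5 of 6 with a median of -0.32, among them the adaptor gene Fcer1g at -0.67 and the exchange factor gene Vav1 at -0.50. Genes for uptake of dying cells were lower for 12 of 13 with a median of -0.27, among them Cd47, a signal against phagocytosis, at -0.27. None of the genes in these 3 lists passed (limma, adjusted p from 0.760). Of their 23 members 11 had an unadjusted p under 0.05 (limma), all lower, against 2.94% of all genes that were lower with such a p. Stab2, an uptake gene in this count, is also in the endothelial list. The complement partners of C1q, described above, are not in this count. They had 0 of 7 at such a p and a median of -0.09. With the week as a covariate the median was 0.02 for uptake genes, with 5 of 13 lower. It was 0.01 for partners of Tyrobp, with 3 of 6 lower, and -0.62 for those of Cybb, with 4 of 4 lower.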

How the data were processed

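The deposited table gives 1 log2 value per probe set and array, processed by the authors. How they corrected and summarised the signal is not stated in the labels. The log2 scale was taken from the values, which end at 14.37. Of 41345 probe sets 23521 carry 1 gene symbol in the platform annotation, and the one with the highest mean stood for each of 22180 genes. No member had a second probe set. Dim probe sets were kept, and levels of different genes are not comparable. What can be detected is limited by the number of arrays, by background at low signal and by equal values between arrays. The design text calls the mice biological replicates.

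Differences, ErbB4-/- minus control, were fitted with limma 3.58.1 (lmFit, then eBayes, under R 4.3.3) and tested two-sided, with Benjamini-Hochberg adjustment over all genes at 0.05. With 3 against 3 arrays an exact permutation p cannot go below 0.1, so none was used. The members, classes and 20 further lists (179 of 198 genes measured) were chosen with earlier results of these data known, so lists get counts and medians only. The array values of all members without overlap and of the 3 largest differences per class are printed, and of other genes up to 4 per list with the smallest p, plus Erbb4, Hsd3b5, Ly6c1, Ccr2, Csf1 and Il34, named for their role. On simulated data with 200 of 22180 genes changed in this comparison, the fit recovered 25.5% at a log2 fall of 0.58, 62% at 1 and 96% at 2. The changed genes were drawn at random, with independent normal noise at each gene's own spread. The median SE of all genes was 0.10, while SEs of members ran from 0.05 for Trem2 to 0.48 for Folr2. These percentages are therefore not those of the members. Same-numbered replicates did not deviate together (correlations across genes of -0.102, 0.034 and -0.05), so the replicate number is used as a block only as an alternative. Figures were drawn with matplotlib 3.10.9.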

Additional observations from a re-analysis of the deposited data

How the results depend on the processing

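No member passed at an adjusted p of 0.05 (limma) in any of the 14 other fits, nor at 0.01 or 0.1 in the fit by genotype alone. Those fits were quantile normalization again, centred medians, genes at or above the median level, all probe sets averaged, a trend and robust prior, the replicate block, the week as a covariate, each array left out, and both named arrays left out. With the replicate block the median over members was -0.69, the smallest adjusted p of a member 0.780, and 22 members had an unadjusted p under 0.05 where 27 did without it. No call of a member changed under the block, while the 1 gene called in all was lost (0 genes called by limma, smallest adjusted p 0.165, 1268 genes at an unadjusted p under 0.05). With the week as a covariate the median over members moved to -0.39 and that over general macrophage genes to -0.29, and 7 members turned upward, Clec4f to 0.015, Timd4 to 0.20, Cd5l to 0.093, Hpgd to 0.051, Axl to 0.15, Trem2 to 0.026 and Cybb to 5e-04. The cause was not tested. Leaving out 1 array gave medians from -0.82 to -0.54 over members, -1.00 to -0.65 over resident, -0.73 to -0.47 over general and -0.86 to -0.64 over monocyte and pan-leukocyte genes, with 34 or 35 members lower. In these fits the sign changed only for Itgax, which ran from -0.17 (without ErbB4-/- replicate 1) to 0.18 (without ErbB4-/- replicate 3) and was -0.018 without control replicate 3.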

Other observations

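Several gene lists of the same tissue showed little of the difference seen in macrophage genes. Genes of lipid-associated macrophages, among them Cd9 at 7.93 ± 0.29 against 7.59 ± 0.33 and Lgals3 at 6.29 ± 0.28 against 6.00 ± 0.33 (SD, n = 3), had a median of -0.06. That is the value of Ctsd, listed at 10.55 on all arrays but ErbB4-/- replicate 1. Over the 5 genes at or above the median level, all lower, the median was -0.18, and with all probe sets averaged it was -0.20. For this list and the complement, dendritic, T and NK, cholangiocyte, hepatocyte, platelet and proliferation lists, the 8 genotype-only medians lay between -0.12 and -0.01. They lay between -0.23 and 0.03 when 1 array was left out. Many genes of these lists were below the median gene, 5.27, where a value can be background. Only 2 of 10 T and NK, 1 of 5 cholangiocyte, 4 of 9 dendritic and 2 of 6 proliferation genes reached that level. A small median there does not show that such cells were unchanged. Hepatocyte genes were lower for 7 of 10. Of these only Hnf4a was without overlap, from 10.99 ± 0.19 to 10.70 ± 0.04 (SD, n = 3; limma, adjusted p = 0.760). With the week as a covariate the lipid-associated median was 0.27 and that of the platelet list -0.36. The B and plasma cell list had a median of -0.07 over 7 genes, but -1.09 over the 3 at or above the median level. Of these, Jchain, the joining chain of antibodies, was at 8.26 ± 0.63 against 6.73 ± 1.16 without overlap, and the antibody chain gene Ighm at 10.64 ± 0.57 against 9.55 ± 0.70 with overlap. Among the T and NK genes the NK receptor gene Ncr1 was higher without overlap, from 3.95 ± 0.10 to 4.39 ± 0.08, at a low signal (limma, adjusted p = 0.760). The T cell receptor complex gene Cd3g was lower without overlap, from 5.22 ± 0.33 to 4.59 ± 0.31, at the same adjusted p, 1 of 2 such genes in the list. Stellate cell genes, 10 of 10 lower, had a median of -0.32 (-0.16 without ErbB4-/- replicate 3 and -0.50 without ErbB4-/- replicate 1). Immediate early genes, 12 of 12 lower, had a median of -1.53 (-0.77 without ErbB4-/- replicate 3), and heat shock genes, 8 of 8 higher, 0.32. Under the week covariate the median was 0.82 for immediate early genes, with 1 of 12 lower. It was 0.05 for stellate cell genes, with 5 of 10 lower, and 0.17 for heat shock genes, with 3 of 8 lower.

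Exactly equal values on 2 or more arrays occurred for 57.5% of all genes but for 3 of the 35 members, Trem2, Itgax and Spi1. The first of these was listed at 1 identical value on 4 arrays.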
